A study of Mus musculus with 33 samples.

Results

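Male blastocysts cloned from CA1 pyramidal neurons, the principal excitatory cells of the CA1 field of the hippocampus, were compared with male blastocysts produced by in vitro fertilisation (IVF). The comparison took every array that the labels assign to these groups, 4 CA1 clones and 7 IVF blastocysts, which is 11 of the 33 arrays of the series. Each array was hybridised with RNA of 1 blastocyst, amplified in a pair of linear rounds. All embryos carried the strain label (C57BL/6NxDBA/2)F1. The clones had received the nucleus of an adult neuron and were taken after 96 h of culture. IVF embryos grew in the same medium, and a time stated for them alone was not found in the labels used here. The labels mark the clones, and not the IVF blastocysts, as treated with trichostatin A, which blocks histone deacetylases. Its concentration was 50 nM, and exposure covered 1 h of activation, 5 h together with cytochalasin B and a further 2 h. Nuclear transfer and trichostatin A therefore cannot be told apart. The labels do not give the number of donor animals or transfer sessions, so each p-value here covers the spread among the blastocysts alone, which may be technical. Another 6 groups served for comparison, all under the same strain label: female CA1 clones (n = 4) with female IVF blastocysts (n = 3), cumulus clones (n = 3), and male clones of adult Purkinje cells (n = 4) and of neonatal Sertoli cells (n = 4). Female Purkinje clones (n = 4) entered the fit and the plots of all 33 arrays only. All clones of these groups had the same trichostatin A treatment.

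A blastocyst holds an outer trophectoderm, which forms the placenta, and an inner cell mass that sorts into the pluripotent epiblast and the primitive endoderm, the source of yolk sac and basement membrane. After nuclear transfer the oocyte has to erase the programme of the donor nucleus, and cloned mouse embryos are known for X-linked genes kept low, for Xist, the RNA that silences an X chromosome, made from an X that should stay active, and for loss of imprints that rest on histone methylation. Imprinted genes are expressed from the maternal or the paternal copy only.

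Levels are given as log2 of the processed signal over the 75th percentile of the array, so that a difference of 1 is a factor of 2 in signal. A shared floor was set at -3.42 on this scale, and a value of -3.42 means at or below it. The floor came from an array outside this comparison, Sertoli replicate 4. From the 11 arrays alone it would have been -5.56. Between 58.8% and 62.6% of the probes of a clone array and between 56.3% and 61.3% of those of an IVF array were well above background. Levels correlated across genes at r = 0.967 to 0.98 among the clones, 0.929 to 0.982 among the IVF blastocysts and 0.908 to 0.943 between the groups. The IVF arrays came from an earlier study of the laboratory and were read with another scanner model and software version. On them 15.7% to 23.0% of the spots had a signal at or below 0, against 0% on the clone arrays. The clones lay on 1 slide and the IVF blastocysts on 3 others, so array set and group cannot be told apart, and no value within a batch could be had.

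Sex-linked genes bore out the labels. Ddx3y and Eif2s3y, ubiquitous genes of the Y chromosome, lay between 1.26 and 4.22 in all 11 male blastocysts and on the floor in all female CA1, female IVF and cumulus embryos. Of 9 Y-linked genes tested Kdm5d (1.67) and Zfy1 (0.51) were higher and Usp9y (-1.16) lower in the clones, all with overlap. Pou5f1, Nanog, Sox2 and Cdx2, the defining factors of inner cell mass and trophectoderm, were well above background on all 11 arrays. Of the markers of the donor neuron, Neurod6, Neurod1, Fibcd1, Gria1 and Grin2a were not well above background on any of the 11.

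Clones and IVF blastocysts differed in many genes. The homeobox gene Rhox5, Xist, the trophoblast factor Hand1 and 9 of 25 genes of the p53 response were higher in the clones. Most of the genes with the deepest falls were X-linked, and 13 of 22 primitive endoderm genes and 8 of 18 genes of DNA methylation were lower. Of 15755 genes tested, 2873 (18.2%) were higher and 2060 (13.1%) lower in the clones at an adjusted p under 0.05 (limma, Benjamini-Hochberg over all genes), together 31.3%. These shares are the background of every list count given here. With each array scaled to its median instead of its 75th percentile, 1752 were higher and 2428 lower, so the share of calls that were higher moved from 58.2% to 41.9% and the majority of one direction is not settled. With normexp, a model-based background correction, 1432 were higher and 782 lower, and 42.7% of the calls were shared. The median change over all genes was 0.02 and moved to -0.06 under that scaling. The difference exceeded 1 in 1703 of the higher and 1233 of the lower genes. Clone and IVF values did not overlap in 3104 genes (19.7% of those tested), with the clones higher in 12.1% and lower in 7.62%. The floor bears on the calls: 443 of the higher genes had at least 4 IVF values on it, and 373 of the lower genes had at least 2 clone values on it. Among 10246 genes that never touched it on the 11 arrays, 2142 were higher and 1591 lower. The fit pools the spread of a gene over all groups. A group wholly on the floor adds none, so SE and adjusted p of such genes can be too small.

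Rhox5, a homeobox gene of the X-linked reproductive cluster that is expressed in placenta and testis, rose most. Its levels were 7.64, 6.17, 7.34 and 7.24 in the clones and -1.27 to 3.14 (median 0.91) in the IVF blastocysts. The groups did not overlap, and the difference was 6.11 ± 0.58 (SE, adjusted p = 7.59e-09). The other 4 Rhox genes tested were not called. Xist stood at 1.99, 2.16, 0.71 and 0.75 in the clones and -3.42 in all IVF blastocysts. All 7 IVF blastocysts lay on the floor, so the difference of 4.82 ± 0.45 (SE, adjusted p = 5.15e-09) is a lower limit, and it rests on clone values that fell into a higher and a lower pair. Another 3 Xist probes differed by 0.14 to 0.78, so the rise belongs to the probe with the strongest signal. Tsix, the antisense partner of Xist, differed by -0.58 ± 0.44 (SE) and was not called.

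**Figure D1:**
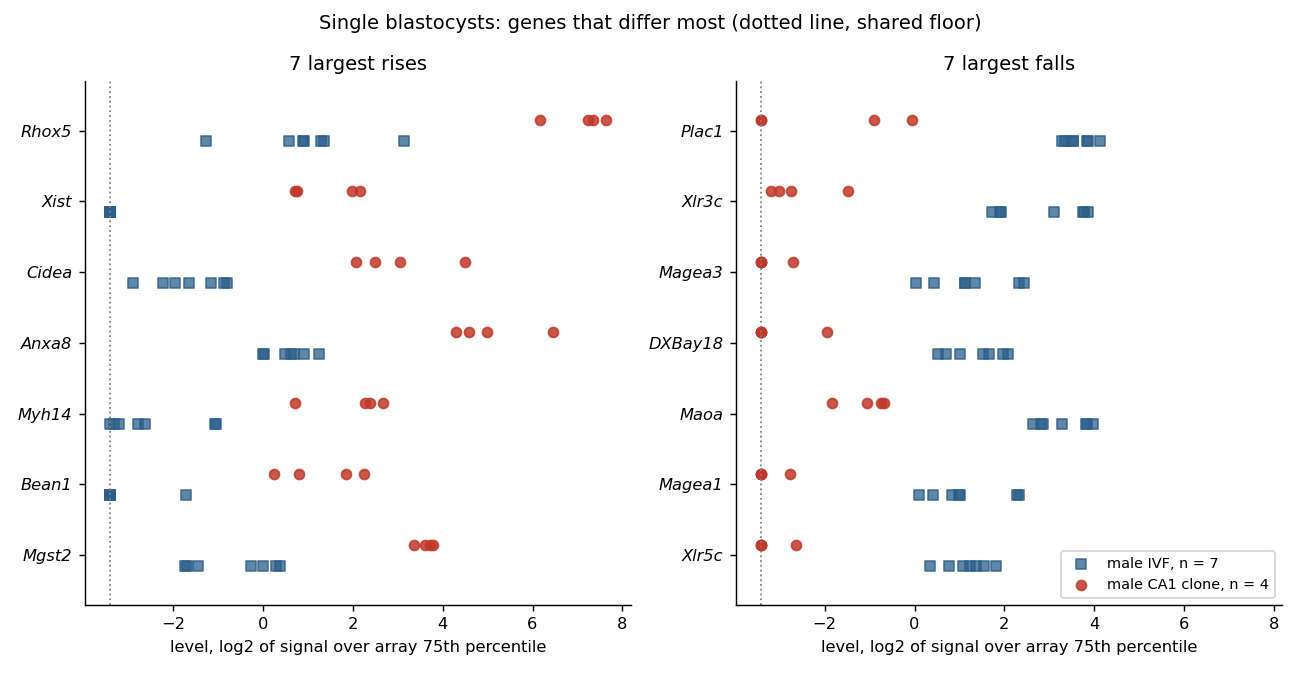
Level of the 7 genes with the largest rises (left) and the 7 with the largest falls (right) in each blastocyst, as log2 of the signal over the 75th percentile of the array; circles are the 4 male CA1 clones, squares the 7 male IVF blastocysts, and the dotted line is the shared floor at -3.42. In every gene shown the groups do not overlap, and several low values lie on the floor.

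The other large rises were spread over the autosomes. Anxa8, which codes for a calcium-dependent phospholipid-binding annexin, stood at 4.29, 4.98, 4.59 and 6.47 in the clones and 0.01 to 1.25 (median 0.62) in the IVF blastocysts, a difference of 4.52 ± 0.45 (SE, adjusted p = 1.73e-08) with no overlap. Mgst2, a microsomal glutathione transferase, was 3.73, 3.35, 3.6 and 3.79 in the clones and -1.74 to 0.38 (median -0.27) in the IVF blastocysts. Its difference was 4.25 ± 0.52 (SE, adjusted p = 4.96e-07), and the 4 clones lay within 0.44 of each other. Cidea, a protein of lipid droplets, was 4.5, 2.49, 3.04 and 2.07 in the clones and -2.9 to -0.80 (median -1.65) in the IVF blastocysts, a rise of 4.68 ± 0.62 (SE, adjusted p = 1.67e-06). Hand1, a transcription factor of trophoblast giant cells, measured 0.37, 1.06, 1.5 and -1.0 in the clones and -3.42 in all IVF blastocysts. Every IVF value lay on the floor, and the rise of 3.9 ± 0.66 (SE, adjusted p = 4.99e-05) is a lower limit. Slc22a18, an imprinted transporter gene of distal chromosome 7, was 2.01, 2.59, 2.61 and 3.6 in the clones and -3.06 to -0.04 (median -0.97) in the IVF blastocysts, with a rise of 3.86 ± 0.58 (SE, adjusted p = 1.11e-05). The transcriptional repressor Hic1 rose by 4.16 ± 0.53 (SE), the non-muscle myosin Myh14 by 4.5 ± 0.59 and the BMP antagonist Nbl1 by 4.01 ± 0.45. The acetyltransferase genes Nat8 and Nat2 rose by 4.14 and 3.79, and Bean1, Bfsp2, Defa29, Mocos, Allc, Cpm, Klra7 and Cpsf4l by between 3.85 and 4.46. In Klra7 all IVF values were on the floor, and in Bean1, Bfsp2, Defa29 and Hic1 6 of 7 were.

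The X chromosome carried most of the largest falls. Of 547 X-linked genes tested, not counting Xist and Tsix, 181 (33.1%) were lower and 27 (4.94%) higher in the clones, against 12.3% lower and 18.8% higher of 15029 autosomal genes. The median change was -0.50 on the X and 0.04 on the autosomes. The same held for the 302 X-linked genes that were off the floor on all 11 arrays, of which 111 (36.8%) were lower. In single blastocysts, the mean level of X-linked minus that of autosomal genes lay between -1.1 and -0.72 in the clones and between -0.20 and 0.03 in the IVF blastocysts, with no overlap. It was -0.89 ± 0.16 (SD, n = 4) and -0.11 ± 0.083 (SD, n = 7). The male Purkinje clones, compared with the same 7 IVF blastocysts, lay between -0.85 and -0.40 and the Sertoli clones between -0.91 and -0.77. Fewer copies of an RNA per cell and fewer cells that make it cannot be told apart in whole blastocysts, here and below.

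**Figure D2:**
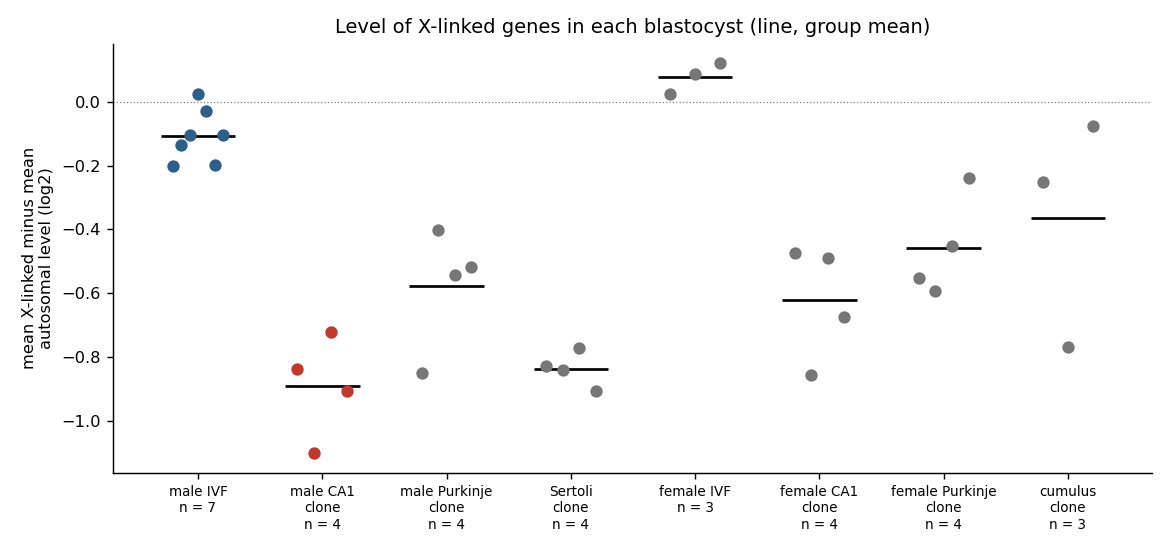
Mean log2 level of 547 X-linked genes minus that of 15029 autosomal genes in each of the 33 blastocysts, by group; points are blastocysts and lines group means. The 4 male CA1 clones lie between -1.1 and -0.72 and the 7 male IVF blastocysts between -0.20 and 0.03.

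Plac1, an X-linked gene of the trophoblast, fell most among genes well above background on all 7 IVF arrays. It measured -3.42, -3.42, -0.91 and -0.06 in the clones and 3.27 to 4.12 (median 3.54) in the IVF blastocysts, and the difference was -5.6 ± 0.96 (SE, adjusted p = 6.58e-05). The clones split into a pair on the floor and a pair nearer to 0, all below every IVF blastocyst. Pgk1, a glycolytic enzyme gene active in nearly all cells, was 1.31, 1.26, 1.64 and 1.52 in the clones and 5.06 to 6.04 (median 5.56) in the IVF blastocysts. Here every clone lay well off the floor, within 0.38 of the others, and the difference was -4.12 ± 0.50 (SE, adjusted p = 4.3e-07). Maoa, the monoamine oxidase, measured -1.06, -0.74, -0.67 and -1.83 in the clones and 2.64 to 3.98 (median 3.29) in the IVF blastocysts and fell by 4.39 ± 0.78 (SE). Msn, the cytoskeletal linker moesin, was 1.66, -1.27, 1.71 and 0.22 in the clones and 4.0 to 5.06 (median 4.19) in the IVF blastocysts, a fall of 3.89 ± 0.58 (SE). The splicing factor gene Mbnl3 fell by 4.16, the cationic amino acid transporter gene Slc7a3 by 4.13, the exchange factor gene Dock11 by 3.8 and the phosphatase gene Dusp9 by 3.69. In Dusp9 another probe differed by only -0.72. Off the X, the largest such differences were in Cibar1, Frmd4a and Fgl1, at -3.92, -3.73 and -3.65. For Frmd4a another pair of probes differed by -0.60 and -0.25.

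The Magea and Xlr families, X-linked gene clusters that are normally read in the male germ line and in early embryos, were lower in nearly every member tested. Of 9 members 8 were lower, all with no overlap, and the median change was -4.31 against 0.02 over all genes. Xlr3c measured -2.74, -3.21, -1.49 and -3.02 in the clones and 1.73 to 3.85 (median 3.11) in the IVF blastocysts, a difference of -5.48 ± 0.79 (SE, adjusted p = 5.79e-06). Magea3 was -3.42, -3.42, -3.42 and -2.71 in the clones and 0.03 to 2.43 (median 1.12) in the IVF blastocysts and Xlr5c -3.42, -3.42, -2.64 and -3.42 in the clones and 0.34 to 1.8 (median 1.22) in the IVF blastocysts. They fell by 4.5 ± 0.39 and 4.39 ± 0.23 (SE), with adjusted p = 1.59e-09 and 9.49e-14. Probes of such near-identical members can take up signal of several, so the members are not separate measurements. The female CA1 clones (median -5.14) and the cumulus clones (median -4.86), neither of which shares a blastocyst with this comparison, had all 8 called lower too. These groups share the female IVF blastocysts with each other, and the cumulus arrays belong to the same earlier array set as the IVF arrays. Cumulus arrays lay on a slide of their own.

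Promoters of an X-linked gene that rose, an X-linked gene that fell and a pair of germ line genes that moved in opposite directions are shown to set their CpG content beside their levels, since methylated CpG is one way such genes are kept silent in somatic cells. Each is the 250 bases before the annotated start in RefSeq (GRCm38.p6), read 5′ to 3′ on the strand of the gene, with CpG in capitals.
Rhox5, chrX:37754358-37754607 (plus strand): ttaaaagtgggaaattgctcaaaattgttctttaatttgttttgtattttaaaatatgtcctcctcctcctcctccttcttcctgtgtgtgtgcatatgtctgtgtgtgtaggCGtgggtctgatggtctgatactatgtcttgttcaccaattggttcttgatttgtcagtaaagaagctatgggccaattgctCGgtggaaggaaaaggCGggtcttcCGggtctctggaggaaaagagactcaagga
Xlr3c, chrX:73265391-73265640 (minus strand): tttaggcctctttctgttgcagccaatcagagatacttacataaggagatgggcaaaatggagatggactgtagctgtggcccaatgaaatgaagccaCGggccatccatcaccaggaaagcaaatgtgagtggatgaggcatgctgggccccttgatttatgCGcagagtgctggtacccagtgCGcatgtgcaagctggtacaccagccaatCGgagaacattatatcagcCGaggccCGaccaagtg
Asz1, chr6:18109062-18109311 (minus strand): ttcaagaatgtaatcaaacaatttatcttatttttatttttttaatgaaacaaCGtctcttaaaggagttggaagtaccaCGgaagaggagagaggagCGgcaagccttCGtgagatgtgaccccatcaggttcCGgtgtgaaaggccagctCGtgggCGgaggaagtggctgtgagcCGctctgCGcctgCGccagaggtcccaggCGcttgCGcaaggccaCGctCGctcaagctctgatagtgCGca
Tdrd12, chr7:35537716-35537965 (minus strand): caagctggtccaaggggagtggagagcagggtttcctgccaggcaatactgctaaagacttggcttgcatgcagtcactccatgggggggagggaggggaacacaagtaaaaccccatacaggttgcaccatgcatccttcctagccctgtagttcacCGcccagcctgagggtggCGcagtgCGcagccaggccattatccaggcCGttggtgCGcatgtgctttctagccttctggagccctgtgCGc
The windows held 4, 6, 15 and 6 CpG. The median was 15 over the 10546 tested genes with a promoter in the table, 14 in genes higher in the clones and 16 in genes lower in them. In the X-linked genes that were lower it was 11, near the 10 over all X-linked genes tested. The E-box CACGTG, a palindrome and so the same on both strands, occurred in 13 of 26 promoters of the germ line list and in 8.35% of those of all genes tested. The letters TCCCGC on either strand occurred in 8 of 26 and in 29.0%. Both are counts of letters, not of bound sites. Of the germ line genes called here only Mov10l1, Tdrd1 and Stk31 held the E-box, and Asz1 and Tdrd12 did not.

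Germ line genes moved both ways. Of 27 tested 6 were higher and 3 lower, near the shares over all genes. Asz1, a protein of the piRNA pathway that guards the germ line against transposons, was -3.42 in all 4 clones and -0.66 to 1.23 (median -0.14) in the IVF blastocysts. All 4 clones lay on the floor, so the fall of 3.36 ± 0.23 (SE, adjusted p = 3.02e-11) is a lower limit. Tdrd12, a tudor protein of the same pathway, went the other way at 0.63, 0.80, 1.54 and 1.28 in the clones and -3.42 to -0.59 (median -1.75) in the IVF blastocysts, a rise of 3.15 ± 0.51 (SE, adjusted p = 3.07e-05), though its second probe lay on the floor in all 11 blastocysts. Tdrd1 rose by 2.45, Tex101 by 1.71, Mov10l1 by 1.54 and Tex19.1 by 1.37. With Dnmt3l, a cofactor of new DNA methylation, and Stk31, Asz1 made up the lower members. Among 12 genes of the 2-cell stage, the time when the embryonic genome is first read, 3 (25%) were higher, near the 18.2% over all genes, and none lower: Usp17la, Tdpoz1 and Sp110 rose by 2.27, 2.13 and 0.95, the first against IVF values that were all on the floor.

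Most listed genes of the primitive endoderm were lower. Of 22 listed genes tested 13 (59.1%) were lower and 1 higher, against 13.1% and 18.2% of all genes, and the median change was -1.51. Foxa2, a transcription factor of endoderm, measured -3.42, -3.42, -2.1 and -3.42 in the clones and -0.63 to 1.5 (median 0.06) in the IVF blastocysts, a fall of 3.39 ± 0.56 (SE) with no overlap. Pth1r, the receptor of parathyroid hormone-related protein, was -1.47, -1.71, -0.51 and -1.98 in the clones and 1.13 to 2.12 (median 1.86) in the IVF blastocysts and fell by 3.17 ± 0.75 (SE). Its second probe differed by -3.10. The laminin gene Lama1, a component of Reichert's membrane, was -0.96, -0.98, 0.98 and -0.22 in the clones and 1.43 to 3.85 (median 2.75) in the IVF blastocysts, a fall of 3.14 ± 0.81 (SE), but another of its probes differed by -0.16. The granule proteoglycan gene Srgn fell by 3.61, the endocytic receptor gene Cubn by 2.38, its partner Amn by 3.43 and the transcription factor Sox7 by 3.39. All 4 clones were on the floor in Sox7, so that fall is a lower limit. The type IV collagens Col4a1 and Col4a2 fell by 1.49 and 1.74 and the laminin Lamb1 by 1.7. Gata6, which opens this lineage, was 5.5, 5.87, 5.7 and 5.82 in the clones and 5.22 to 5.71 (median 5.66) in the IVF blastocysts and did not pass the test, at 0.19 ± 0.18 (SE, adjusted p = 0.437). Sox17 differed by -1.52 ± 1.11 (SE), with 0.30, 1.16, 3.94 and 2.65 in the 4 clones, and was not called. The summed linear level of the listed markers was 398 to 487 times the array's 75th percentile in the clones and 567 to 851 in the IVF blastocysts. In female CA1 clones 8 of the members called here were called the same way, and in cumulus clones 5. Over all genes lower in male CA1 clones these shares were 24.9% and 8.59%.

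Few genes of pluripotency were called. Of 25 pluripotency genes tested 2 were higher, 2 lower, and the median change was -0.26. Pou5f1 was 4.11, 4.39, 4.07 and 4.22 in the clones and 4.02 to 4.44 (median 4.34) in the IVF blastocysts, with overlap and a difference of -0.09 ± 0.22 (SE, adjusted p = 0.813). Nanog differed by -0.39 ± 0.44 (SE, adjusted p = 0.542) and Sox2 by -0.09 ± 0.34 (SE, adjusted p = 0.892). The members that passed were Zfp42, a reprogramming marker also called Rex1, at 0.74 ± 0.18 (SE, adjusted p = 0.00267), Dppa3, which shields imprints, at 0.65 ± 0.23 (SE, adjusted p = 0.0337), Sall4 at -1.23 ± 0.24 (SE, adjusted p = 0.000337) and the X-linked Nr0b1 at -2.3 ± 0.76 (SE, adjusted p = 0.022). Of 26 trophectoderm genes 3 were higher and 6 lower. Cdx2 was 6.67, 6.4, 6.27 and 6.1 in the clones and 5.93 to 6.5 (median 6.04) in the IVF blastocysts and was not called, at 0.22 ± 0.28 (SE, adjusted p = 0.599). Besides Hand1, the galectin gene Lgals3 rose by 1.32 and Wwtr1, a Hippo effector, by 1.6. Besides Plac1, Id2 fell by 1.92, Krt7 by 1.07, Fgfr2 by 1.0, Gata3 by 0.92 and Krt18 by 0.54. Id2, an inhibitor of differentiation factors, was 4.8, 4.15, 5.38 and 4.0 in the clones and 6.17 to 6.98 (median 6.39) in the IVF blastocysts, with every clone below every IVF blastocyst. Among 21 genes of the epithelium that pumps fluid into the cavity 2 were higher (Jup at 1.71 among them) and 3 lower (Tjp1 at -1.03, Cdh1 at -0.99, Cldn7 at -0.51).

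Several enzymes that write DNA and histone methylation were lower. Of 18 DNA methylation genes 8 (44.4%) were lower and 1 higher, against 13.1% and 18.2% of all genes. Dnmt3b, which sets new methylation as the embryo implants, was 3.26, 3.69, 3.87 and 3.34 in the clones and 5.02 to 5.71 (median 5.64) in the IVF blastocysts. The groups did not overlap and the fall was 2.01 ± 0.20 (SE, adjusted p = 1.68e-08). Dnmt1, which copies methylation at replication, measured 0.28, 0.72, 0.94 and 0.16 in the clones and 0.86 to 2.97 (median 1.69) in the IVF blastocysts and fell by 1.38 ± 0.31 (SE) with overlap. Tet3, which oxidises methylated cytosine, fell by 2.1, though another of its probes lay on the floor in all 11 blastocysts. Mbd3 fell by 2.0, Dnmt3l by 1.2 and Tet1 by 1.07. In Mbd3 all clones but replicate 4 were on or next to the floor, which limits the size of that fall. The higher member was Dppa3. Dnmt3a differed by 0.93 ± 0.47 (SE, adjusted p = 0.135) and was not called. Of 14 genes of histone H3K9 methylation 5 were lower and 2 higher. Setdb1, the methyltransferase that silences retroviral repeats, was -0.31, 0.02, -0.24 and -0.57 in the clones and 0.82 to 2.26 (median 1.34) in the IVF blastocysts and fell by 1.69 ± 0.22 (SE). The X-linked Suv39h1 fell by 1.37, the heterochromatin protein gene Cbx5 by 1.13 and the demethylase gene Kdm4b by 1.08, while Kdm3a and Atf7ip rose by 0.96 and 0.84. In Kdm4b all clones but replicate 3 were on or next to the floor. Of 21 Polycomb subunits Ring1 (-1.88), Suz12 (-1.03) and Eed (-1.02) were lower and 1 higher. Of 9 histone deacetylases, the targets of trichostatin A, Hdac5 (1.14) and Hdac1 (0.60) were higher and none lower, but with normexp 1 more was lower than higher.

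Imprinted genes changed in both directions. Of 22 genes whose imprint rests on histone H3K27 methylation from the oocyte, 8 (36.4%) were higher and 2 lower, with a median change of 0.69. Gramd1b, a sterol transfer protein gene, was 3.26, 3.03, 2.97 and 3.6 in the clones and -2.56 to 0.47 (median 0.10) in the IVF blastocysts, a rise of 3.53 ± 0.42 (SE, adjusted p = 3.05e-07) with no overlap. Besides Xist, Epas1 rose by 1.86, Smoc1 by 1.42 and Slc38a4, an amino acid transporter gene of the placenta, by 0.66. Slc38a4 stood at 5.13, 6.2, 4.97 and 4.7 in the clones and 3.74 to 5.17 (median 4.61) in the IVF blastocysts, with overlap and an adjusted p of 0.0483. Sfmbt2 differed by 0.59 ± 0.32 (SE, adjusted p = 0.174) and was not called. Slc38a2 and Rbms1 were lower, at -2.31 and -1.34. Of 20 maternally expressed genes of other imprinted regions 5 were higher and 3 lower, a balance that turned to the lower side with scaling to the array median. The higher ones were Slc22a18, its neighbours Cd81 (1.46), Tssc4 (0.80) and Cdkn1c (0.90), a growth inhibitor, and Copg2 (0.53), and the lower ones were Meg3 (-1.84), Grb10 (-1.81) and Gnas (-0.92). Of 21 paternally expressed genes Mcts2 (0.93) was higher and Impact (-0.96) lower. H19 differed by 0.95 ± 0.68 (SE, adjusted p = 0.307) and Igf2 by -0.58 ± 0.35 (SE, adjusted p = 0.222), and neither was called.

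**Figure D3:**
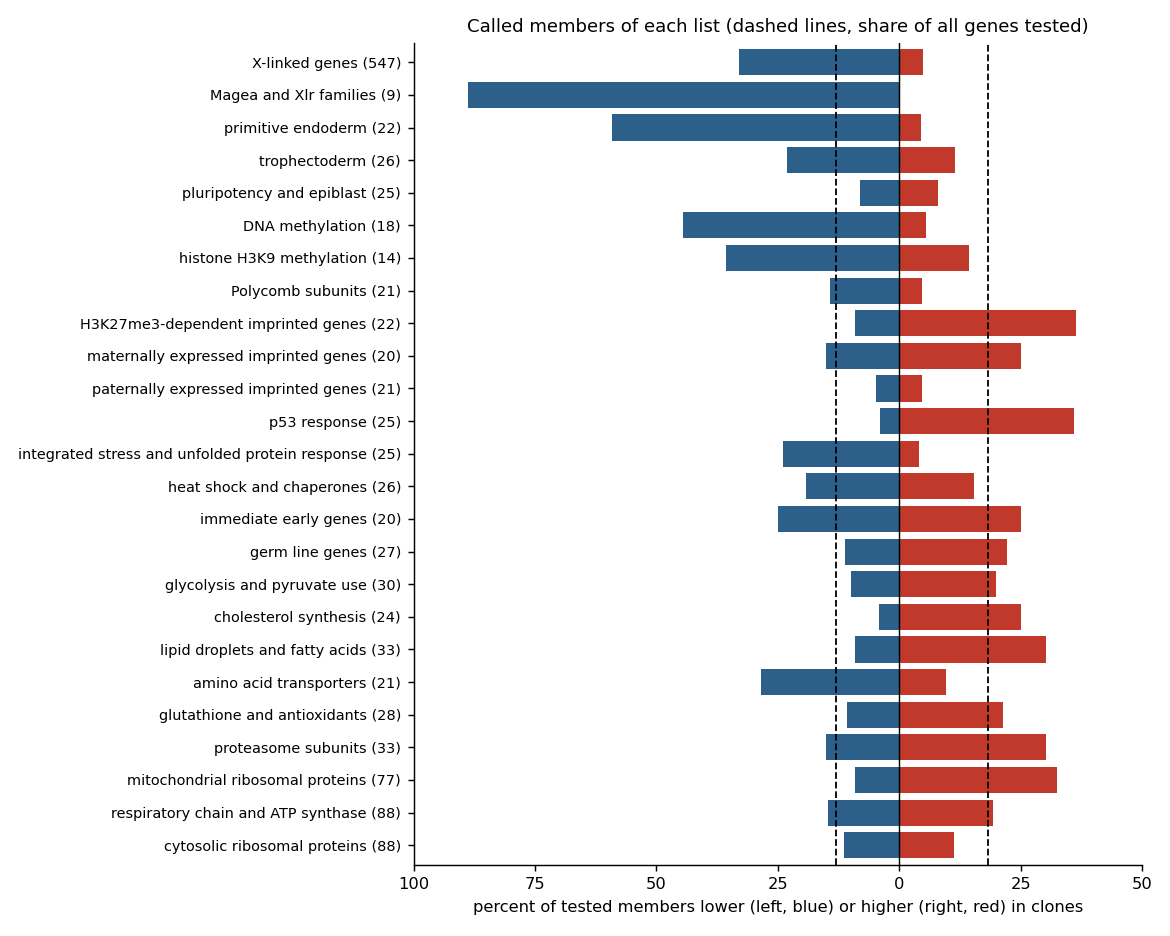
Percent of the tested members of each gene list that were called lower (bars to the left) or higher (bars to the right) in male CA1 clones, with the number tested in brackets; dashed lines mark the shares over all genes, 13.1% lower and 18.2% higher. The primitive endoderm bar reaches 59.1% lower and the p53 response bar 36% higher.

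Several targets of p53, the factor that halts the cell cycle and starts cell death after damage, were higher. Of 25 genes tested 9 (36%) rose and 1 fell, against 18.2% and 13.1% of all genes. Cdkn1a, the cell cycle inhibitor p21, was 1.29, 1.97, 0.44 and 1.48 in the clones and -2.69 to -0.51 (median -1.25) in the IVF blastocysts, a rise of 2.89 ± 0.57 (SE, adjusted p = 0.000324) with no overlap. Bbc3, the death factor Puma, was 1.53, 2.12, 1.64 and 1.99 in the clones and -0.52 to 0.80 (median -0.32) in the IVF blastocysts, a rise of 1.97 ± 0.40 (SE, adjusted p = 0.000419). Phlda3 rose by 2.21, Plk2 by 2.38, Btg2 by 1.73 and Ccng1 by 1.43. Trp53 itself fell by 1.34 ± 0.24 (SE), though its second probe differed by 0.99. In female CA1 clones 1 of the 10 members called here was called the same way, against 32.8% of all genes higher in male CA1 clones. Of 25 genes of the integrated stress and unfolded protein responses 6 were lower and 1 higher. Hsp90b1, a chaperone of the endoplasmic reticulum, was 5.09, 5.22, 5.25 and 5.11 in the clones and 6.39 to 7.12 (median 6.49) in the IVF blastocysts and fell by 1.51 ± 0.18 (SE, adjusted p = 2.26e-07), and its second probe differed by 0.21. Xbp1, which drives that response, fell by 1.55, the one-carbon enzyme gene Mthfd2 by 1.8 and Herpud1 by 1.65. The higher member was Cebpb at 1.58. Of 26 heat shock proteins and chaperones 4 were higher, led by Dnajb4 (2.47) and Hspa1a (1.79), and 5 lower, led by the mitochondrial Hspa9 (-1.07). That balance turned to the higher side with normexp background correction.

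The immediate early genes, which respond within minutes to growth signals, split. Of 20 tested 5 rose and 5 fell. Junb, an AP-1 subunit, measured -1.6, -1.89, -0.92 and -1.17 in the clones and 1.11 to 2.57 (median 1.76) in the IVF blastocysts and fell by 3.21 ± 0.32 (SE, adjusted p = 2.49e-08). Jund, a subunit of the same factor, measured 5.29, 5.37, 5.82 and 6.36 in the clones and 3.26 to 4.02 (median 3.45) in the IVF blastocysts and rose by 2.22 ± 0.22 (SE, adjusted p = 3.09e-08). In both genes every clone lay on the same side of every IVF blastocyst. Myc fell by 3.07 and Dusp1 by 1.87, whereas Fos and Jun rose by 1.77 and 1.65. Of 27 Nodal, BMP and Id genes 7 were lower, among them Bmp4 (-2.18), Id2, Id3 (-1.45) and Cfc1 (-1.38), and 4 higher, led by the BMP antagonist gene Nbl1. Of 20 FGF and MAP kinase genes 4 were lower, among them the feedback inhibitor Spry4 (-2.5, with all clones on the floor, so the fall is a lower limit) and Mapk3 (-1.08), and 2 higher, Sos1 (1.68) and Fgfr3 (0.93). Of 16 Hippo pathway genes 3 were higher and 3 lower, with Amotl2, which holds Yap1 in the cytoplasm, at -2.09 and Tead2 at 1.02. Of 35 cell cycle genes 6 were lower and 3 higher, with Cdk2 at -1.49 and Cdk1 at -1.06, and the inhibitor Cdkn1b at 1.36.

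Of 33 genes of lipid droplets and fatty acid use tested 10 (30.3%) rose and 3 fell, against 18.2% and 13.1% of all genes. Next to Cidea its relative Cidec was -1.28, -1.08, -1.21 and -1.29 in the clones and -3.42 to -2.66 (median -3.38) in the IVF blastocysts, a rise of 1.97 ± 0.37 (SE, adjusted p = 0.000205). Cpt1a, the gate of fatty acid entry into mitochondria, was 3.42, 3.95, 3.03 and 3.09 in the clones and 1.03 to 2.12 (median 1.79) in the IVF blastocysts, a rise of 1.74 ± 0.22 (SE, adjusted p = 9.7e-07) with no overlap. Cpt2, the next enzyme, rose by 1.2 and Fabp5 by 1.56. Acaca, which starts fatty acid synthesis, fell by 1.42, and its second probe differed by 0.20. Of 24 genes of cholesterol synthesis 6 were higher, with Ebp at 1.57 and the regulator Srebf2 at 1.04, and 1 lower, the X-linked Nsdhl at -1.4. Ebp is X-linked too and was 7.58, 7.81, 7.36 and 7.4 in the clones and 5.37 to 6.32 (median 6.03) in the IVF blastocysts.

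Glycolytic genes changed in both directions, also within enzyme families. Of 30 tested 6 (20%) were higher and 3 (10%) lower, near the shares over all genes, and with the mean of the probes of a gene 1 more was lower than higher. Hk1, a hexokinase, was 5.16, 5.15, 4.62 and 4.51 in the clones and 0.63 to 2.36 (median 1.53) in the IVF blastocysts, a rise of 3.42 ± 0.45 (SE, adjusted p = 1.56e-06) with no overlap. Eno3 rose by 1.83 and Aldoc by 1.53, and Eno1 fell by 1.78, a lower limit, since all 4 clones were on the floor. Of 21 amino acid transporters 6 (28.6%) were lower and 2 higher, Slc38a4 and Slc38a1 (0.98). After Slc7a3, Slc6a14 fell by 2.87, Slc38a2 by 2.31 and Slc1a4 by 2.06. Of 28 antioxidant genes 6 were higher, led by Srxn1 (1.85), and 3 lower, led by the X-linked Prdx4 (-1.34), and this balance turned with scaling to the array median or quantile normalization. Of 22 basement membrane, collagen and integrin genes 5 were lower, among them Lama1, Col4a1 and Col4a2, and 4 higher, led by Itga11 (3.63).

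Of 77 mitochondrial ribosomal protein genes tested 25 (32.5%) were higher and 7 lower, against 18.2% and 13.1% of all genes. They build the machine that translates the genome of the mitochondrion. Mrpl22 was 4.55, 4.51, 4.53 and 4.64 in the clones and 2.0 to 2.63 (median 2.19) in the IVF blastocysts, a rise of 2.28 ± 0.18 (SE, adjusted p = 4.25e-10), and the 4 clones lay within 0.13 of each other. In female CA1 clones 17 of the called members were called the same way, and in cumulus clones none. Over all genes higher in male CA1 clones these shares were 32.8% and 3.97%. Of 88 cytosolic ribosomal proteins 10 were higher and 10 lower. Of 88 genes of the respiratory chain and ATP synthase 17 were higher, led by the assembly factor Ndufaf3 (1.94), and 13 lower, led by Ndufa10 (-1.51), and more were lower than higher with scaling to the array median, quantile normalization or normexp. Of 33 proteasome subunits 10 were higher and 5 lower, again turned with scaling to the array median. The immunoproteasome subunit Psmb9, which shapes peptides for antigen presentation, was 3.94, 4.17, 2.86 and 3.72 in the clones and -0.39 to 1.91 (median 1.11) in the IVF blastocysts, a rise of 2.69 ± 0.41 (SE, adjusted p = 1.33e-05) with no overlap, and Psmb10 of the same particle rose by 1.1.

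Few markers of the donor neuron could be tested. Of 20 CA1 markers on the array 7 were tested. Wfs1, a protein of the endoplasmic reticulum used to mark CA1, was 3.6, 4.99, 4.77 and 5.19 in the clones and 2.22 to 3.17 (median 2.87) in the IVF blastocysts, a rise of 1.85 ± 0.23 (SE, adjusted p = 4.84e-07). Itpka rose by 1.07, and 1 member was lower. The summed level of the CA1 list was 16.1 to 42.3 in the clones and 7.98 to 13.6 in the IVF blastocysts, and Wfs1 made up most of it. Of 13 pan-neuronal genes tested 3 were lower, Nefl (-3.41), Rtn1 (-2.66) and Tubb3 (-1.36), and 2 higher, Uchl1 (2.41) and Elavl3 (1.36). The summed pan-neuronal level was 5.42 to 7.80 in the clones and 6.92 to 16.5 in the IVF blastocysts. Snap25, Syt1 and Gap43 were not well above background on any clone array. Of 4 glial genes tested Mbp was lower (-0.58), and no cumulus marker of 4 tested was called. Oocyte transcripts summed to 16.5 to 23.1 in the clones and 6.40 to 9.83 in the IVF blastocysts, with Ooep (1.52) and Gdf9 (1.87) higher and H1f8 (-1.05) lower. Their part in the other results was not tested.

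The female CA1 clones gave a second measurement of the same donor cell type, on other blastocysts and against other IVF controls. Of the 2873 genes higher in male CA1 clones 941 (32.8%) were also called higher in female CA1 clones, which is 63.1% of the 1492 (9.47% of all tested) called higher there. Of the 2060 lower genes 513 (24.9%) were also called lower, 69.6% of the 737 (4.68%) called lower there. The sign was the same in 91.0% of the higher and 82.6% of the lower genes, against 62.1% and 37.8% of all genes with that sign. Among the shared genes were Hand1 (4.84 in females), Mgst2 (3.77), Anxa8 (3.14), Mrpl22 (1.5), Xlr3c (-6.33) and Foxa2 (-3.44). The female comparison has the same split of array sets. Male and female CA1 clones lay on separate slides but were scanned on the same day, when no other group was scanned. Female IVF blastocysts shared a slide and scan day with male IVF replicate 5. Shared donor cell type and shared scan day therefore cannot be told apart in these overlaps. Cumulus clones and female IVF blastocysts lie in 1 array set. They were on separate slides with separate scan days, so slide and group cannot be told apart there either. In that comparison 321 genes (2.04%) were called higher and 498 (3.16%) lower with 3 embryos a group. Of the genes higher in male CA1 clones 114 (3.97%) were called higher in cumulus clones, 35.5% of the calls there, and 43 were called lower. Of the lower genes 177 (8.59%) were called lower, again 35.5% of the calls there, and 17 higher. Mgst2 (3.22), Xist (2.57), Asz1 (-3.64), Dnmt3b (-1.08) and Foxa2 (-3.23) were called the same way in cumulus clones, where Junb (0.07), Cidea (-0.41) and Mrpl22 (0.02) were not called.

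**Figure D4:**
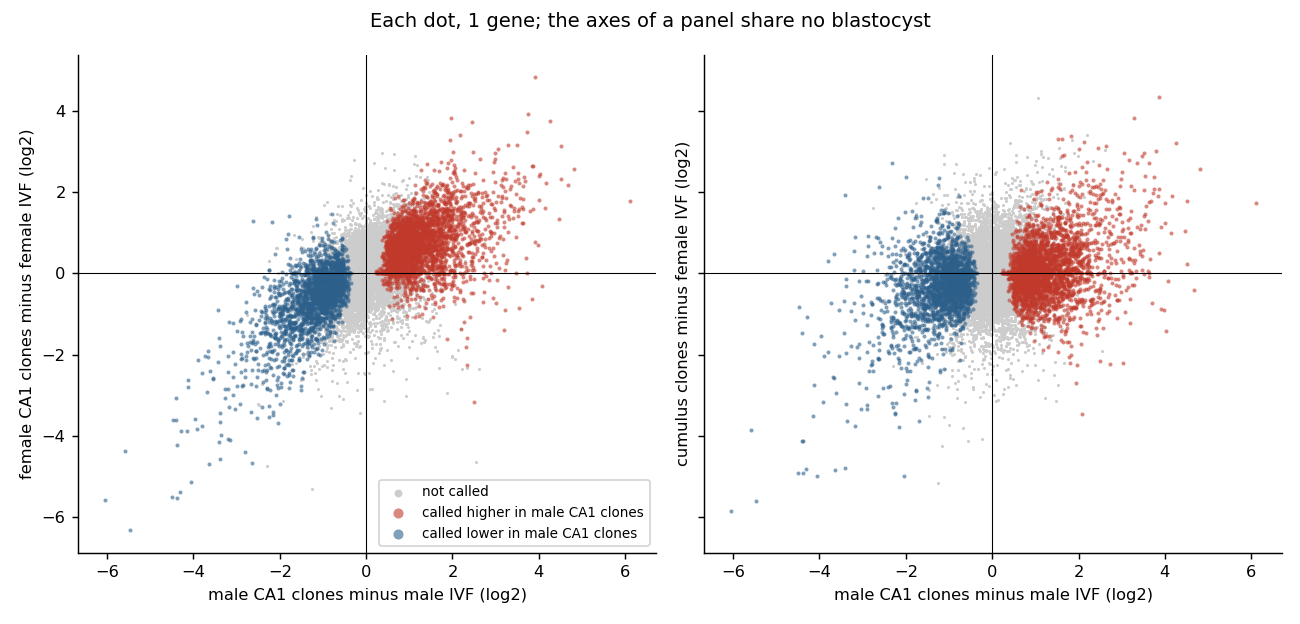
Difference between clones and IVF blastocysts on the log2 scale for each of 15755 genes, male CA1 clones on the horizontal axis and female CA1 clones (left) or cumulus clones (right) on the vertical axis; coloured dots are genes called in male CA1 clones. Of the genes called higher 91.0% lie above 0 on the left and 50.4% on the right.

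A difference between the male and the female effect of CA1 nuclei was called in few genes. Genes without such a call were not shown to respond equally. The test of the difference called 179 genes, 94 with the male effect above the female one (0.597%) and 85 below it (0.54%). Without male CA1 clone replicate 4 it called 96, and without female IVF replicate 1 109. With normexp it called 48, and 112 came from the authors' value table. Rhox5 rose more in males, by 4.31 ± 0.91 (SE, adjusted p = 0.0129), with 1.8 in females, where the mean of the IVF blastocysts was 4.74 ± 0.07 (SD, n = 3), against 0.98 ± 1.3 (SD, n = 7) in males. The X-linked Tmem35a, a chaperone gene of nicotinic receptors, had the largest gap among them, at 5.68 ± 1.37 (SE, adjusted p = 0.0342). Its change was 2.51 in male and -3.18 in female clones, and the male call was lost in 12 of 24 alternative settings. Pnmal1, Insl6 and Marveld3 rose in male clones by 3.24, 2.47 and 3.09, against 0.26, -0.48 and 0.12 in females. Lrrc66 was not well above background on any of the 7 male IVF arrays and was at least 13.3-fold higher in the male clones, while all female CA1 and female IVF values lay on the floor. The male effect was also larger for the kinase gene Rps6kb2, by 2.21 ± 0.39 (SE, adjusted p = 0.00284), for Jund, by 1.75 ± 0.38 (SE, adjusted p = 0.0173), and for Cpt1a, by 1.56 ± 0.35 (SE, adjusted p = 0.0201). In the other direction, the kinase anchor gene Akap5 differed by -3.92 ± 0.99 (SE, adjusted p = 0.0469), the H3K36 methyltransferase gene Ash1l differed by -2.69 ± 0.54 (SE, adjusted p = 0.00924), the cap methyltransferase gene Pcif1 by -2.26 ± 0.39 (SE, adjusted p = 0.00224), the Polycomb gene Suz12 by -1.9 ± 0.46 (SE, adjusted p = 0.035) and the actin nucleator gene Arpc5 by -1.94 ± 0.38 (SE, adjusted p = 0.00718). Pcif1 fell in males (-0.79) and rose in females (1.47), both called.

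Male Purkinje and Sertoli clones were hybridised in the same array set as the CA1 clones, so these differences do not involve the IVF arrays. Each group lay on a slide of its own, so slide and group cannot be told apart. Between 45.3% and 46.2% of the probes were well above background on Sertoli arrays and between 49.0% and 55.9% on Purkinje arrays, fewer than on any male CA1 array. Against Purkinje clones 7.76% of the genes were called higher and 10.9% lower in CA1 clones, and against Sertoli clones 5.31% and 6.81%. Against both of these groups 425 genes (2.7%) were higher and 623 (3.95%) lower in CA1 clones, and without male CA1 clone replicate 4 the numbers were 195 and 225. With normexp they were 353 and 9, and 297 and 272 where arrays were scaled to their median, so the larger number of lower genes is not settled. Junb was lower than in both groups. Its mean was -1.4 ± 0.43 (SD, n = 4) in CA1 clones, 1.64 ± 0.87 (SD, n = 4) in Purkinje and 1.32 ± 0.30 (SD, n = 4) in Sertoli clones, a difference of -3.04 ± 0.36 and -2.72 ± 0.36 (SE). Fgl1, a secreted liver factor, differed by -3.06 ± 0.64 and -3.43 ± 0.64 (SE), and the X-linked Dcaf12l2 by -3.19 ± 0.69 and -3.46 ± 0.69 (SE). In both genes Purkinje replicate 1 stood apart from its group, at -1.44 against 0.36 to 2.19 for Fgl1 and at -1.46 against 0.24 to 2.21 for Dcaf12l2, close to the CA1 clones. The integrin Itgb3 was on the floor in all 4 CA1 clones, so its differences of -2.43 ± 0.64 and -2.79 ± 0.64 (SE) are lower limits in size, but its second probe differed from IVF by 0.06. Purkinje replicate 1 lay next to the floor at -3.33, and the other Purkinje clones between -1.31 and 0.55. Junb, Dcaf12l2 and Itgb3 were called lower in female CA1 clones too (-2.04, -2.46 and -2.42 against female IVF), and Fgl1 was not called there (-1.92). Female CA1 clones share their scan day with the male CA1 clones. On the higher side Rims1, a scaffold of the presynaptic active zone, was 0.43, -1.54, 0.97 and 1.0 in the clones and -3.42 in all IVF blastocysts, so its rise against IVF is a lower limit, with means of -2.75 ± 0.54 (SD, n = 4) in Purkinje and -3.16 ± 0.52 (SD, n = 4) in Sertoli clones and differences of 2.96 ± 0.38 and 3.37 ± 0.38 (SE). Rps6kb2 was 0.74, 0.64, 0.16 and 0.66 in the clones and -2.55 to -1.34 (median -1.98) in the IVF blastocysts and differed by 2.48 ± 0.28 and 3.69 ± 0.28 (SE), though its second probe differed from IVF by -0.86. Bean1 differed by 2.55 ± 0.60 and 2.67 ± 0.60 (SE). Purkinje and Sertoli clones share the 7 male IVF blastocysts as controls with the CA1 clones, and against these their differences were 6.19 and 6.05 for Rhox5 and 5.55 and 6.43 for Xist.

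**Figure D5:**
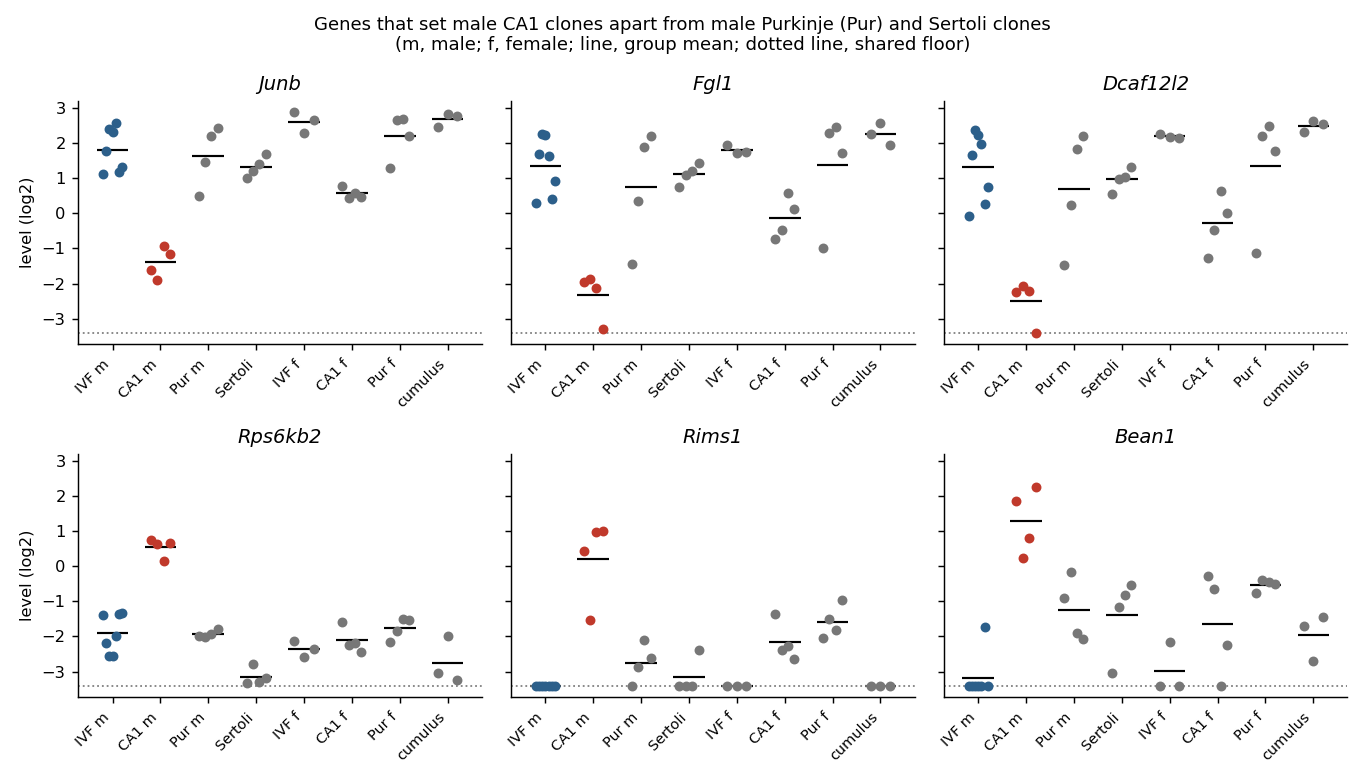
Log2 level of 6 genes that separate male CA1 clones from male Purkinje and Sertoli clones, in each of the 33 blastocysts by group; lines are group means and the dotted line the shared floor. In Junb the 4 male CA1 clones lie between -1.89 and -0.92, below every other blastocyst, and in Rps6kb2 between 0.16 and 0.74, above every other blastocyst.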

How the data were processed

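Amplified RNA of single blastocysts was hybridised to Agilent 44K mouse arrays in 1 colour (Cy3). The deposited scanner files hold processed signal intensity per spot, which per the submitters' processing notes came from Agilent Feature Extraction 10.5.1; per the file headers the IVF and cumulus arrays were read with an earlier version. A table of log2 values by the authors, deposited beside them, served as an alternative. Control spots and outlier spots were left out. Each array's signal was divided by its 75th percentile, and a shared floor, set after the files were opened at the highest of the arrays' 1st percentiles of signals well above background, was applied before log2. A probe was kept when well above background on more than 50% of the arrays of at least 1 group and above the floor on at least 3 arrays. A gene was read from its probe with the highest mean, and 15755 genes were tested. One limma fit (3.58.1, R 4.3.3) over all 33 arrays with a mean per group and 25 residual degrees of freedom gave all differences, with Benjamini-Hochberg adjusted p under 0.05 as the call. It was tested on simulated data. The alternatives were other scalings, normexp with an offset of 50 on the median spot signal (the mean was not on every array), other filters, floors and probe rules, the authors' values, replicate and slide blocks, and leaving out each blastocyst. Named genes were the 20 largest rises and falls with no overlap and signal above background, up to 6 called members per list, 14 genes fixed by name, the 10 largest differences each way between sexes and from other clones, and markers; members of counts of 5 or fewer, and comparisons of such genes elsewhere, were chosen after their values were seen. Some genes that this rule names are not reported here. The blastocysts and gene lists were chosen with earlier results of these data known. Of 41174 probes 22951 were named by accession and 8455 kept the name in the file.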

Additional observations from a re-analysis of the deposited data

Results flagged for a closer look

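A difference between the male and the female effect of CA1 nuclei, tested directly in the limma fit, was called in 179 genes, and in 48 with normexp background correction. Among the genes named, the male effect was above the female one by 5.68 in Tmem35a, 4.31 in Rhox5, 3.74 in Lrrc66, 3.13 in Cpm, 2.98 in Pnmal1, 2.96 in Marveld3, 2.94 in Insl6, 2.37 in Rims1, 2.21 in Rps6kb2, 2.17 in Srxn1, 1.75 in Jund, 1.67 in Elavl3 and 1.56 in Cpt1a, on the log2 scale. It was below it, at -3.92 in Akap5, -2.69 in Ash1l, -2.26 in Pcif1, -1.94 in Arpc5 and -1.90 in Suz12.

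A single blastocyst lay far from the others of its group in 29 of 398 groups of values over 199 genes, by Dixon's criterion. Chance alone meets this criterion in about 1 of 20 groups. Groups with all values on the floor are counted in the 398 but could not be flagged, so the share among the rest is higher. Where the other members were on or next to the floor, the gap only says that 1 value rose off it. Among the clones these values were -2.10 for Foxa2, -2.64 for Xlr5c and -3.15 for Kdm4b in replicate 3, and -2.71 for Magea3, -2.51 for Nr0b1 and -3.00 for Mbd3 in replicate 4. Among the IVF blastocysts they were -1.72 for Bean1, -1.94 for Defa29 and -3.36 for Hspa1a in replicate 6. They were -2.91 for Bfsp2, -2.64 for Tdrd1 and -2.43 for Uchl1 in replicate 3. They were -3.21 for Hic1 in replicate 4, -3.35 for Insl6 in replicate 1 and -2.87 for Pnmal1 in replicate 7. Nat8 in IVF replicate 3 (-0.89) and H19 in IVF replicate 4 (-0.18) were apart too. There the other IVF values reached up to -2.37 and -2.13, so they were not all on the floor.

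Off the floor, clone replicate 4 was apart in Ccng1 at 5.55, Cdh1 at 4.39, Gata3 at 4.22, Fgl1 at -3.28 and Dcaf12l2 at -3.42, the last on the floor itself. Clone replicate 2 was low in Bfsp2 at -1.93, and clone replicate 3 was low in Rps6kb2 at 0.16. IVF replicate 2 was low in Dnmt3b at 5.02 and in Slc1a4 at -0.48, replicate 1 was high in Jund at 4.02, replicate 5 was high in Asz1 at 1.23 and replicate 6 was low in Gramd1b at -2.56.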

How the results depend on the processing

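Of 199 genes named, 106 kept their direction and their side of the threshold under every alternative tried. Of the 24 alternatives, 16 took the call from Slc38a4, 14 from Fgfr3, and 12 each from Kdm4b, Rbms1, Tmem35a and Zfy1. Counting only changes over 1 on the log2 scale left 1703 higher and 1233 lower genes. Normexp background correction gave 1432 higher and 782 lower, 48 sex differences and 9 genes lower than both other male clone groups. Scaling to the array median gave 1752 higher, 41.91% of the calls, and 272 lower than both other groups, and the authors' value table gave 112 sex differences. Leaving out 1 blastocyst at a time gave 2313 to 2849 higher and 1551 to 2061 lower, a share of higher calls of 57.23% to 60.16%, 96 to 248 sex differences, and 195 to 475 higher and 225 to 700 lower against the other male clones. The lowest of these last counts came without male CA1 clone replicate 4. The number of members called higher minus the number called lower turned its sign in 8 lists. With normexp it became -1 for histone deacetylases, 2 for chaperones and -1 for the respiratory chain. With scaling to the array median it became -2 for maternally expressed imprinted genes, -3 for antioxidants, -2 for the proteasome and -11 for the respiratory chain, with quantile normalization -1 for antioxidants and -3 for the respiratory chain, and with the mean of the probes of a gene -1 for glycolysis. Without 1 blastocyst it ranged from -1 to 2 for deacetylases, -1 to 2 for maternally expressed imprinted genes, -2 to 2 for chaperones, -1 to 4 for antioxidants and -3 to 1 for Nodal, BMP and Id genes. Usp9y turned to 0.031 with normexp, and Slc38a1 to -0.0044 with the mean of the probes of a gene. The cause was not tested. Replicate numbers do not pair clones with IVF blastocysts: same-numbered samples correlated at -0.15, -0.078, 0.091 and -0.16 in their deviations from the group means. With the replicate number as a block 4206 genes were called, 3889 of them (78.8% of the calls without it) shared, and chaperones turned to 1. With the slide as a random block 4448 were called. Signal over background limits the low genes, since 17.9% of clone values and 19.9% of IVF values lay on the floor.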
